A study of Saccharomyces cerevisiae with 15 samples.

Results

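The transcripts of 55 genes that act on tRNA after its transcription were followed in 15 RNA libraries from the budding yeast Saccharomyces cerevisiae. The genes encode tRNA-modifying enzymes and their partners, the enzymes that remove tRNA introns, and proteins that finish, protect or export the new tRNA. They were listed by systematic name, and all 55 were found among the 6600 genes of the count table. All of them were among the 5851 genes that passed the filter on low counts, and the lowest count of any of them in a library was 116, for TAD3.

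The 5 strains were [PRT1], [RBS1], [RBS1-R3H], rpc128-1007 and wt, with 3 biological replicates of each. All 5 carry the rpc128-1007 mutation on the chromosome, which lies in the gene for Rpc128, the second-largest subunit of RNA polymerase III (Pol III), and disturbs assembly of the enzyme. Strain rpc128-1007 held an empty vector. Strains [PRT1] and [RBS1] held multicopy plasmids with PRT1, which encodes part of the initiation factor eIF3, and with RBS1, for an RNA-binding protein, and both genes suppress the growth defect of the mutant in the cold. The plasmid of strain [RBS1-R3H] encodes Rbs1 with an inactivated R3H domain, the part that binds RNA, and does not suppress. The strain called wt is the same mutant complemented by native RPC128 on a centromeric plasmid, so it is not a strain without the mutant allele. The shared background carries SUP11, a gene for a suppressor tRNA. RNA came from log-phase cells in YPD, a rich medium with glucose that does not select for the plasmids, after a preculture that did. The preculture lacked uracil or leucine, and the medium of each strain is not stated. The [RBS1] and [RBS1-R3H] plasmids share a backbone, and those of wt and [PRT1] are others. Outside [RBS1] against [RBS1-R3H], the plasmid gene thus cannot be told apart from backbone and preculture. The libraries were made from mRNA bound to oligo(dT), so tRNA itself was not measured, and what is described below is the level of the mRNAs for the tRNA enzymes. The question is how these mRNAs differ when Pol III assembly is disturbed, and when a plasmid suppresses the defect.

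A tRNA is made by Pol III as a longer precursor. Its ends are trimmed, an intron is cut out of some species, the sequence CCA is added, and many of its bases are methylated, reduced, isomerised, deaminated or thiolated. Modifications in and beside the anticodon tune decoding, and those in the body of the molecule help it to fold and keep it from being degraded. In yeast part of this work is done in the nucleus and part on the surface of mitochondria or in the cytosol, with export and re-import of tRNA in between.

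Libraries held 7365923 to 12164321 counts, with a median of 9449052. The plasmid genes and the complemented gene followed the labels in every library. RET1 (YOR207C), the gene for Rpc128, had 182 to 271 CPM (counts scaled to a common library size, with TMM factors) in the 12 libraries without the RPC128 plasmid, against 432 to 473 CPM in wt. PRT1 (YOR361C) had 4449 to 5057 CPM in [PRT1], against 540 to 743 CPM in the other 12 libraries. RBS1 (YDL189W) had 4223 to 4582 CPM in [RBS1] and 2464 to 3947 CPM in [RBS1-R3H], against 72.9 to 134 CPM elsewhere. In rpc128-1007 replicate 2 and [RBS1] replicate 2 short genes were low relative to the mean of their strain, with a Spearman correlation across 5699 genes between deviation and coding length of 0.56 and 0.50. [PRT1] replicate 1 was at 0.43, and at the other end [PRT1] replicate 3 and [RBS1] replicate 3 were both at -0.46. Across genes, this describes those libraries and is not a replicate test.

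Whole chromosomes stood apart in some strains, and 6 of the 55 genes lie on them. In the 3 [PRT1] libraries the median log2 difference from the mean of wt over the 292 tested genes of chromosome VIII was 0.95, 0.96 and 0.97, and 291 of these genes were above wt. In rpc128-1007 replicates 1, 2 and 3 the median over chromosome XI was 0.82, 0.36 and 0.49. Chromosome VIII gave 0.10, 0.28 and 0.33 and chromosome I gave 0.04, 0.28 and 0.30 in the same libraries. The other 13 chromosomes stayed between -0.076 and 0.042 in all 15 libraries. In [RBS1], [RBS1-R3H] and wt the medians of I, VIII and XI stayed between -0.059 and 0.047. The genes concerned are TRM5 (YHR070W), IKI1 (YHR187W) and UBA4 (YHR111W) on VIII, TRM2 (YKR056W) and LOS1 (YKL205W) on XI, and SEN34 (YAR008W) on I. The libraries hold RNA only, and whether the number of copies of these chromosomes differed was not tested. In the comparisons with [PRT1] or rpc128-1007, calls on the 6 genes are given a second time with the chromosome medians removed, that is with the median difference from wt of each chromosome in each library taken out. This alternative was chosen after seeing the data.

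**Figure D1:**
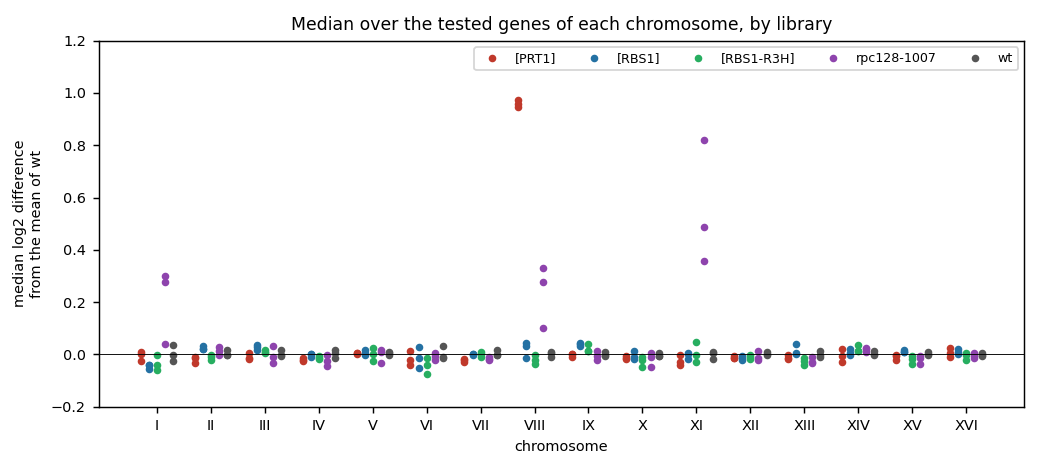
Median log2 difference from the mean of wt over the tested genes of each chromosome (vertical axis) for the 15 libraries, 1 point each, coloured by strain. The 3 [PRT1] points on chromosome VIII lie between 0.95 and 0.97, and rpc128-1007 lies above 0 on I, VIII and XI.

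The 55 mRNAs were of moderate abundance. In wt their median level per kb of coding sequence was 73.8 CPM per kb, against 44.5 CPM per kb over the 5699 tested genes with a known length. Together they made up 0.708% of the TMM-scaled library size in [PRT1], 0.703% in rpc128-1007, 0.697% in [RBS1-R3H], 0.696% in [RBS1] and 0.639% in wt. The TMM factors differ between libraries, so these are not percentages of raw counts. By role, the pseudouridine synthases had the highest median in wt, 122 CPM per kb, followed by the methyltransferases at 99.9 CPM per kb. The deaminases were lowest at 31.2 CPM per kb, and the intron-removal genes had 47.7 CPM per kb. The highest single level per kb in wt was that of URM1 (YIL008W), a ubiquitin-like sulfur carrier, at 440 CPM per kb. TRM112 (YNR046W), a small partner subunit shared by several methyltransferases, followed at 367 CPM per kb. The lowest levels were 14.8 CPM per kb for PPM2 (YOL141W), which acts last in wybutosine synthesis, and 15.3 CPM per kb for TAD3 (YLR316C). Both high genes are short, and the libraries with low short genes had their lowest URM1 values in their own strains, 88.0 CPM in rpc128-1007 replicate 2 and 109 CPM in [RBS1] replicate 2.

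**Figure D2:**
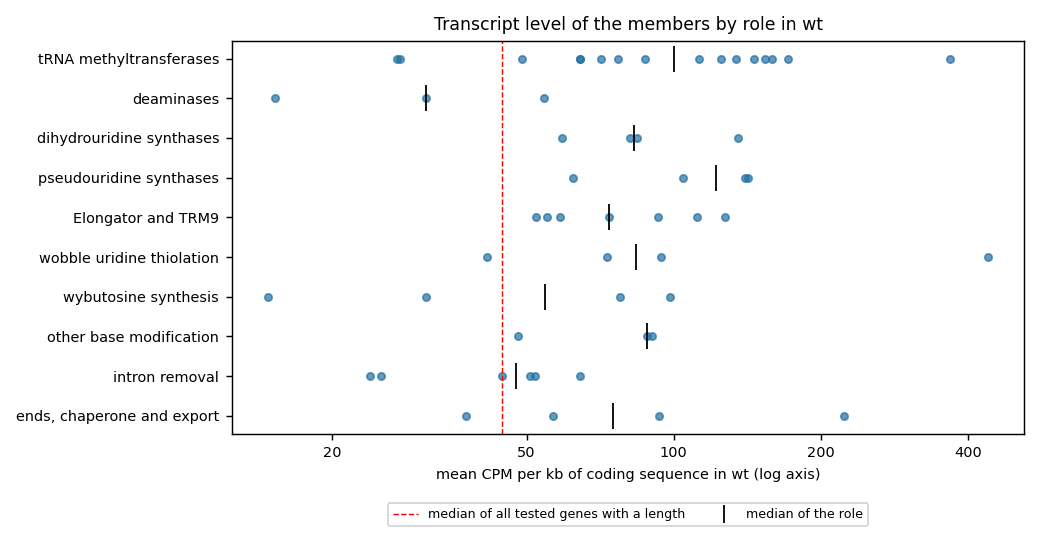
Mean CPM per kb of coding sequence in wt (3 libraries) for the 55 genes, 1 point per gene on a log axis, in rows by role; a black bar marks the median of the role and the dashed line the median of all tested genes, 44.5 CPM per kb. The deaminases and several intron-removal genes lie below most other roles, and URM1 lies at 440 CPM per kb.

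The strains differed little in most of these mRNAs. For 45 of the 55 genes the highest and lowest strain means lay within 0.5 on the log2 scale, and the median range was 0.28. TRM3 (YDL112W), which methylates a ribose in the D loop, had the smallest range, 0.07. IKI1, a subunit of Elongator, had the largest, 1.14. Against wt, 45 of the 55 lay above 0 in [RBS1], 43 in [PRT1], 35 in [RBS1-R3H] and 33 in rpc128-1007. Their median log2 differences were 0.14, 0.12, 0.05 and 0.05. Over all 5851 tested genes 2973, 2949, 2791 and 3049 lay above 0, with medians of 0.004, 0.003, -0.015 and 0.013. Outside chromosomes I, VIII and XI, 38 of 49 lay above 0 in [PRT1] vs wt, against 2474 of 5157 tested genes. These comparisons share the wt libraries. The highest strain mean was that of [RBS1] for 22 genes, and the lowest was that of wt for 25. The matching counts over all tested genes were not made, so these ranks do not set the 55 apart from other genes. A gene was called where the adjusted p of edgeR's quasi-likelihood test, with Benjamini-Hochberg adjustment over all 5851 tested genes, was under 0.05. Over 9 comparisons between strains, 21 of the 55 (38.2%) were called at least once, where 54.2% of all tested genes were, and 34 were called in none. In the lower direction the share of the 55 that was called was below that of all tested genes in each of the 9 comparisons. In the higher direction it was above that of all tested genes in 5 comparisons and below in 4. The shares stand beside each count as reported, and all-gene counts stand beside only some counts of the alternatives.

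**Figure D3:**
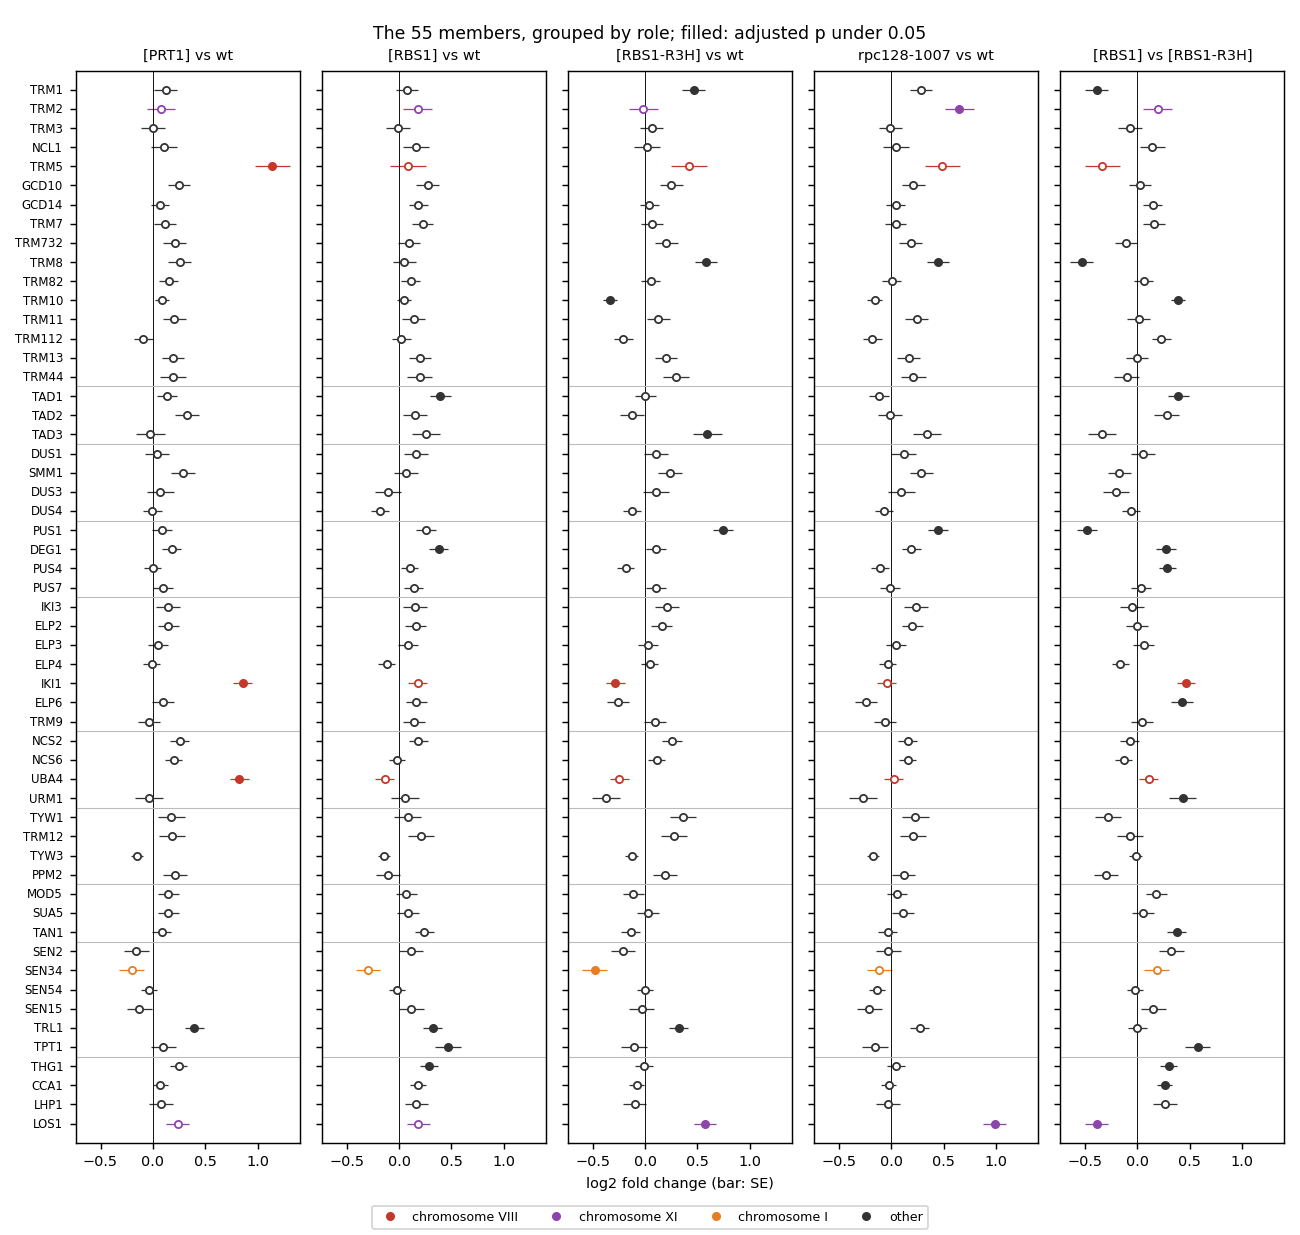
Log2 fold changes (horizontal axes, bars 1 SE) of the 55 genes in 5 comparisons, in rows grouped by role; filled points passed an adjusted p of 0.05, and colour marks genes on chromosomes VIII, XI and I. In [PRT1] vs wt the 3 red points, TRM5, IKI1 and UBA4, lie between 0.82 and 1.14.

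Short DNA motifs in front of these genes were looked up because yeast genes for ribosome and tRNA synthesis often share them. The PAC motif is bound by the repressors Dot6 and Tod6, the RRPE motif by Stb3, and Gcn4 is the activator of amino acid synthesis genes. The letters searched were GATGAG for PAC, AAAATTTT for RRPE and TGACTC for Gcn4, on both strands, in the 300 bases before the coding start in the R64 genome from RefSeq. GATGAG was present before 33 of the 55 genes, against 18.6% of all 5897 genes with such a window. AAAATTTT was present before 16, 29.1%, against 9.56% of all genes, and 13 of the 55 had both. TGACTC was present before 2, DEG1 and TAN1, which is 3.64% against 7.89% of all genes. PAC and Gcn4 letters can overlap, but they did so before none of the 55. Of 20 nucleolar ribosome assembly factors, 19 held GATGAG and 19 held AAAATTTT. Of 21 cytosolic aminoacyl-tRNA synthetases, 5 held GATGAG, 13 held AAAATTTT and 9 held TGACTC. These are matches of letters and do not show that a factor binds there.

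The windows below belong to genes called higher in [RBS1-R3H] than in wt (PUS1, TAD3, TRM8, LOS1 and TRM1) and to TPT1, which had the largest difference of those called higher in [RBS1] than in wt. TRL1 was also called higher in both, but held none of the 3 motifs and so has no window. Of the genes called lower in [RBS1-R3H] than in wt, TRM10 held AAAATTTT, 95 bases before the start, and SEN34 and IKI1 held none of the motifs. Among the others called higher in [RBS1] than in wt, DEG1 held all 3 and TAD1 and THG1 held none. Each has 30 bases, written 5′ to 3′ on the strand of the gene, with the motif in capitals; CTCATC is GATGAG read on the other strand. Positions are in R64, whose identity with the assembly the authors used was not checked.
PUS1 (YPL212C), PAC, chrXVI:153362-153391, minus strand, 230 bases before the start: tttagttctaagCTCATCgcatatttcaaa
PUS1, RRPE, chrXVI:153345-153374, minus strand, 214 bases before the start: cgcatatttcaAAAATTTTcattaccgtac
LOS1 (YKL205W), PAC, chrXI:49793-49822, plus strand, 246 bases before the start: aacaccaggcagCTCATCgtatgttccttt
LOS1, RRPE, chrXI:49956-49985, plus strand, 84 bases before the start: aaaaaaaaactAAAATTTTttcaaattcca
TAD3 (YLR316C), PAC, chrXII:766404-766433, minus strand, 63 bases before the start: aatcaccaatagCTCATCtaaaggtatata
TRM8 (YDL201W), RRPE, chrIV:99524-99553, plus strand, 26 bases before the start: tcccataggatAAAATTTTcaagcgtttat
TRM1 (YDR120C), PAC, chrIV:693308-693337, minus strand, 64 bases before the start: tcgcattcaatgCTCATCgcaaagttacag
TPT1 (YOL102C), PAC, chrXV:126749-126778, minus strand, 77 bases before the start: acgcgaggaaagCTCATCaaaataatggca
PUS1 and LOS1 had both motifs, and in PUS1 the windows around them overlap. In TRM8 no GATGAG was found and in TRM1, TAD3 and TPT1 no AAAATTTT. The median log2 difference in [RBS1-R3H] vs wt was 0.10 over the 33 genes with GATGAG, -0.01 over the 22 without, and 0.04 over all 1056 tested genes with it. In rpc128-1007 vs wt it was 0.10 with, -0.0003 without and 0.06 over all tested genes with it. In [RBS1] vs wt it was 0.14, 0.15 and 0.08, and in [PRT1] vs wt 0.12, 0.12 and 0.06.

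In rpc128-1007, 4 of the 55 mRNAs were higher than in wt: LOS1, TRM2, PUS1 and TRM8. This is 7.27% of the 55, where 12.7% of all tested genes were called higher. None was lower by edgeR's test, where 5.62% of all tested genes were called lower. At an unadjusted p under 0.05, 3 were lower, and DESeq2 called 0 and limma-voom 1. With counts scaled by library totals 4 were higher and 3 lower, and over all tested genes 592 were higher and 599 lower, against 745 and 329 as reported. The median log2 difference over the 55 was 0.05, against 0.01 over all tested genes. CPM are relative levels, scaled with TMM factors, in the mRNA of a whole culture. Less of a transcript in every cell and fewer cells that make it thus cannot be told apart.

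LOS1 encodes exportin-t, the carrier that takes tRNA out of the nucleus. It had 299, 218 and 221 CPM in rpc128-1007, against 133, 123 and 116 CPM in wt, and the lowest mutant library lay well above the highest wt library. The log2 fold change was 0.99 ± 0.11 (SE; edgeR adjusted p = 2.37e-05). Chromosome XI, on which it lies, was also high in these libraries. With the chromosome medians removed it was 0.41 (edgeR adjusted p = 0.0012). Without rpc128-1007 replicate 1, the library with the highest chromosome XI, it was 0.82.

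TRM2, the methyltransferase that makes ribothymidine in the T loop of nearly all tRNAs, lies on the same chromosome. It had 255, 201 and 187 CPM in rpc128-1007, against 149, 136 and 124 CPM in wt. All 3 mutant libraries were above all wt libraries, and the log2 fold change was 0.65 ± 0.14 (edgeR adjusted p = 0.00394). With the chromosome medians removed it was 0.08 and was not called (edgeR adjusted p = 0.688).

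PUS1, a nuclear pseudouridine synthase with many sites in tRNA, lies on chromosome XVI, which did not stand apart. It had 352, 313 and 285 CPM in rpc128-1007, against 234, 243 and 219 CPM in wt, without overlap. The log2 fold change was 0.45 ± 0.10 (edgeR adjusted p = 0.00462). TRM8 encodes the catalytic subunit of the enzyme that methylates a guanine in the variable loop. It had 99.4, 95.1 and 76.5 CPM in rpc128-1007, against 72.8, 68.5 and 57.6 CPM in wt. The lowest mutant and the highest wt library were close. The log2 fold change was 0.44 ± 0.11 (edgeR adjusted p = 0.00993), and the call was lost without wt replicate 3 and when only the libraries of both strains were fitted. TRM82 (YDR165W), the other subunit of the same enzyme, differed by 0.00.

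Replicate numbers paired the libraries of rpc128-1007 and wt, by the check given with the methods. With the replicate number as a block, fitted over all 15 libraries, 11 of the 55 were called, 10 higher and 1 lower. Over all 5851 tested genes, 1000 were then higher and 616 lower, against 745 and 329 as reported. The added genes were SMM1, TRL1, TRM1, TRM11, TRM5 and TYW1, at log2 differences of 0.29, 0.27, 0.28, 0.24, 0.47 and 0.23, and TYW3, at -0.18. Of these, TRM5 lies on chromosome VIII, which was raised in rpc128-1007. Without rpc128-1007 replicate 3 and without the block, 8 were called.

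In [RBS1-R3H], 6 of the 55 mRNAs were higher and 3 were lower than in wt. These are 10.9% and 5.45% of the 55, where 13.4% of all tested genes were called higher and 9.55% lower. PUS1, TAD3, TRM8, LOS1, TRM1 and TRL1 were higher, and SEN34, TRM10 and IKI1 were lower. With counts scaled by library totals the split was 5 higher and 9 lower, and the median of all genes moved by -0.11. Over all tested genes 580 were then higher and 1142 lower, against 782 and 559 as reported.

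PUS1 had 388, 416 and 361 CPM in [RBS1-R3H], against 234, 243 and 219 CPM in wt, the highest values of any strain for this gene. The log2 fold change was 0.74 ± 0.10 (edgeR adjusted p = 5.66e-05). TRM8 had 95.5, 106 and 95.8 CPM in [RBS1-R3H], against 72.8, 68.5 and 57.6 CPM in wt, a log2 fold change of 0.58 ± 0.11 (edgeR adjusted p = 0.00132). LOS1 had 179, 190 and 186 CPM in [RBS1-R3H], against 133, 123 and 116 CPM in wt. Chromosome XI was level with wt in these libraries, and the log2 fold change was 0.57 both as tested (SE 0.11, edgeR adjusted p = 0.00136) and with the chromosome medians removed.

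TRM1 encodes the enzyme that makes dimethylguanosine at the junction of the D and anticodon stems. It had 415, 425 and 370 CPM in [RBS1-R3H], against 309, 304 and 266 CPM in wt (log2 fold change 0.46 ± 0.11, edgeR adjusted p = 0.00708). TAD3 is the partner subunit of Tad2 in the deaminase that makes wobble inosine. It had 22.0, 22.2 and 23.0 CPM in [RBS1-R3H], against 14.9, 14.9 and 14.7 CPM in wt (log2 fold change 0.60 ± 0.14, edgeR adjusted p = 0.0053). TAD3 overlaps NKP2 by 4 bases on the opposite strand in R64, and whether the counting used strand is not given in the sources used here. TAD2 (YJL035C), its partner, was at -0.13 and was not called.

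TRL1 (YJL087C), the tRNA ligase that joins the exons after intron removal, had 76.4, 74.9 and 71.5 CPM in [RBS1-R3H], against 63.1, 56.9 and 58.2 CPM in wt (log2 fold change 0.32 ± 0.09, edgeR adjusted p = 0.0215). Its call was lost under library totals and without any of 4 libraries: [RBS1-R3H] replicates 1 and 2 and wt replicates 2 and 3. TRL1 was also called in [PRT1] vs wt at 0.40 and in [RBS1] vs wt at 0.32. All 12 libraries outside wt were above all 3 wt libraries, but the comparisons share these wt libraries and are not separate evidence.

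Among the lower genes, SEN34, one of the nuclease subunits of the tRNA splicing endonuclease, had 34.0, 29.4 and 27.3 CPM in [RBS1-R3H], against 46.7, 38.5 and 41.2 CPM in wt. The log2 fold change was -0.48 ± 0.12 (edgeR adjusted p = 0.01), and chromosome I was level with wt in both strains. TRM10 (YOL093W), which methylates a guanine between the acceptor and D stems, had 109, 113 and 111 CPM in [RBS1-R3H], against 151, 143 and 127 CPM in wt (log2 fold change -0.34 ± 0.07, edgeR adjusted p = 0.00232). IKI1 had 57.0, 59.6 and 52.2 CPM in [RBS1-R3H], against 69.0, 66.8 and 70.2 CPM in wt, at -0.29 ± 0.09 (edgeR adjusted p = 0.0341), and this call was lost without any of 5 libraries: wt replicates 1, 2 and 3 and [RBS1-R3H] replicates 1 and 3.

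Against rpc128-1007, [RBS1-R3H] had 2 lower mRNAs and none higher among the 55, where 6.8% of all tested genes were called lower and 4.67% higher. At an unadjusted p under 0.05 edgeR gave 1 higher, DESeq2 called 1 and limma-voom called 0. Both lower genes, TRM2 and LOS1, lie on chromosome XI. TRM2 had 138, 134 and 133 CPM in [RBS1-R3H], against 255, 201 and 187 CPM in rpc128-1007 (log2 fold change -0.67 ± 0.14, edgeR adjusted p = 0.0063). LOS1 had 179, 190 and 186 CPM in [RBS1-R3H], against 299, 218 and 221 CPM in rpc128-1007, at -0.41 ± 0.11 (edgeR adjusted p = 0.0221). The LOS1 call was lost without rpc128-1007 replicate 1 or any replicate of [RBS1-R3H], with only both strains fitted and with the length trend removed. With the chromosome medians removed they were at -0.11 and 0.15, and none of the 55 was called. Without rpc128-1007 replicate 1, 4 were called, and without [RBS1-R3H] replicate 1 or replicate 2, 1 was called. In PUS1 and TRM8, which were higher than wt in both strains, [RBS1-R3H] differed from rpc128-1007 by 0.29 and 0.14, and neither was called. PUS1 was called without rpc128-1007 replicate 1, at 0.38 (edgeR adjusted p = 0.0246).

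The comparison with the most calls among the 55 was [RBS1] against [RBS1-R3H], strains whose plasmids differ in the R3H domain of Rbs1. The RBS1 transcript was also higher in every [RBS1] library than in any of [RBS1-R3H]. Its level and the domain thus cannot be told apart. In [RBS1], 11 of the 55 were higher and 4 were lower. Of all tested genes, 13.5% were called higher and 14.4% lower. The higher genes were TPT1, IKI1, URM1, ELP6, TAD1, TRM10, TAN1, THG1, PUS4, DEG1 and CCA1. The lower ones were TRM8, PUS1, LOS1 and TRM1, with log2 fold changes of -0.53, -0.48, -0.39 and -0.39. PUS1 had 268, 306 and 259 CPM in [RBS1], against 388, 416 and 361 CPM in [RBS1-R3H]. TRM1 had 317, 344 and 266 CPM in [RBS1], against 415, 425 and 370 CPM in [RBS1-R3H]. Neither gene had overlapping libraries, nor had TRM8 and LOS1, whose values in both strains stand with the other comparisons. Library totals moved the median of all genes by 0.13 in this comparison and gave 18 higher and 2 lower among the 55. Over all tested genes 1460 were then higher and 574 lower, against 788 and 842 as reported. The LOS1 and TRM1 calls were lost with library totals. The LOS1 call was also lost without [RBS1] replicate 3 and with the length trend removed, and the TRM1 call without [RBS1] replicate 3 or [RBS1-R3H] replicate 2.

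TPT1 encodes the phosphotransferase that removes the phosphate left at the splice junction. It had 58.3, 69.3 and 57.9 CPM in [RBS1], against 36.0, 42.3 and 46.0 CPM in [RBS1-R3H], without overlap. The log2 fold change was 0.58 ± 0.12 (edgeR adjusted p = 0.00301). IKI1 had 76.1, 83.0 and 74.0 CPM in [RBS1], against 57.0, 59.6 and 52.2 CPM in [RBS1-R3H] (log2 fold change 0.46 ± 0.09, edgeR adjusted p = 0.00165). ELP6 (YMR312W), which forms a subcomplex of Elongator with Iki1 and Elp4, had 47.0, 53.4 and 44.8 CPM in [RBS1], against 34.7, 38.0 and 35.5 CPM in [RBS1-R3H], at 0.42 ± 0.10 (edgeR adjusted p = 0.00774). ELP4 (YPL101W) itself was at -0.16 and was not called.

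URM1 had 155, 109 and 148 CPM in [RBS1], against 104, 102 and 99.0 CPM in [RBS1-R3H]. Its log2 fold change was 0.43 ± 0.13 (edgeR adjusted p = 0.026), and this call was lost without any of 5 libraries: [RBS1] replicates 1 and 3 and the 3 replicates of [RBS1-R3H]. TAD1 (YGL243W), the deaminase that makes inosine beside the anticodon of alanine tRNA, had 43.6, 58.3 and 46.4 CPM in [RBS1], against 37.5, 36.2 and 39.0 CPM in [RBS1-R3H], at 0.39 ± 0.10 (edgeR adjusted p = 0.00845). TRM10 had 145, 151 and 139 CPM in [RBS1], against 109, 113 and 111 CPM in [RBS1-R3H], at 0.39 ± 0.07 (edgeR adjusted p = 0.000759). TAN1 (YGL232W), needed for acetylation of cytidine in tRNA, was at 0.38, THG1 (YGR024C), which adds a guanine to the leading end of histidine tRNA, at 0.30, and the pseudouridine synthase gene PUS4 (YNL292W) at 0.29. DEG1 (YFL001W), another pseudouridine synthase, was at 0.28, and CCA1 (YER168C), which adds the CCA end, was at 0.26. The TAN1 call stood in all 25 alternatives. The calls on THG1, PUS4, DEG1 and CCA1 were each lost without [RBS1] replicate 2, without [RBS1-R3H] replicate 3 and in others. The replicate numbers paired these strains, and with the block 20 were called, 14 higher and 6 lower. The matching count over all tested genes is not given here. The block added LHP1, SEN2 and TRM112 at 0.26, 0.32 and 0.23, and TYW1 and PPM2 at -0.28 and -0.30.

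Against wt, [RBS1] had 5 higher mRNAs and none lower among the 55, where 6.53% of all tested genes were called higher and 4.29% lower. At an unadjusted p under 0.05 edgeR gave 2 lower, and DESeq2 and limma-voom called 0. TPT1 had 58.3, 69.3 and 57.9 CPM in [RBS1], against 49.2, 41.1 and 43.7 CPM in wt (log2 fold change 0.47 ± 0.12, edgeR adjusted p = 0.0288). TAD1 was at 0.39, DEG1 at 0.38, TRL1 at 0.32 and THG1 at 0.29, and in all of them the lowest [RBS1] library was above the highest wt library. TAD1 had 43.6, 58.3 and 46.4 CPM in [RBS1], against 37.6, 39.2 and 35.8 CPM in wt. DEG1 had 104, 124 and 94.3 CPM in [RBS1], against 85.2, 83.0 and 79.8 CPM in wt. The highest library in both was [RBS1] replicate 2, as it was in TRL1 and THG1. TRL1 had 72.4, 80.0 and 70.1 CPM in [RBS1], against 63.1, 56.9 and 58.2 CPM in wt. THG1 had 74.3, 90.9 and 79.5 CPM in [RBS1], against 67.9, 66.2 and 66.0 CPM in wt. These calls depended on which libraries were kept, and so did the counts over all tested genes. Without [RBS1] replicate 2, the library with low short genes, or without wt replicate 3, none of the 55 was called. Over all tested genes 373 and 336 were then called, against 633 as reported. Without wt replicate 1 there were 2, without wt replicate 2 there was 1, and without [RBS1] replicate 3, [PRT1] replicate 2 or any replicate of [RBS1-R3H] there were 3. Over all tested genes 394 were called without wt replicate 1 and 276 without wt replicate 2. The matching counts for the other libraries left out are not given here.

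Against rpc128-1007, [RBS1] had 7 higher and 3 lower mRNAs among the 55, where 12.6% of all tested genes were called higher and 17.1% lower. TPT1 had the largest positive difference of the 7, with 58.3, 69.3 and 57.9 CPM in [RBS1], against 35.2, 39.9 and 44.9 CPM in rpc128-1007 (log2 fold change 0.63 ± 0.12, edgeR adjusted p = 0.00173). TAD1 followed at 0.51, with 33.4, 34.6 and 35.9 CPM in rpc128-1007, and ELP6 at 0.40, with 33.9, 40.4 and 35.3 CPM in rpc128-1007. Both were called in all 25 alternatives, and their [RBS1] values stand with the comparison above. TAN1 had 87.7, 103 and 87.2 CPM in [RBS1], against 71.8, 83.0 and 75.1 CPM in rpc128-1007. TRM10 had 145, 151 and 139 CPM in [RBS1], against 126, 126 and 124 CPM in rpc128-1007. These genes differed by less than TPT1 and TAD1, and their libraries did not overlap. TAN1 was at 0.27, THG1 at 0.24, TRM10 at 0.21 and CCA1 at 0.21, and each of these calls was lost in at least 5 alternatives.

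LOS1 had 140, 149 and 135 CPM in [RBS1], against 299, 218 and 221 CPM in rpc128-1007, at -0.80 ± 0.11 (edgeR adjusted p = 0.000113), and at -0.23 with the chromosome medians removed (edgeR adjusted p = 0.028). TRM2 had 151, 174 and 138 CPM in [RBS1], against 255, 201 and 187 CPM in rpc128-1007, at -0.47, and with the chromosome medians removed it was at 0.10 and not called. TRM8 had 69.4, 68.7 and 67.9 CPM in [RBS1], against 99.4, 95.1 and 76.5 CPM in rpc128-1007, at -0.40 ± 0.11 (edgeR adjusted p = 0.0133). The TRM8 and TRM2 calls were lost without rpc128-1007 replicate 1 and with only both strains fitted, and the TRM2 call also without [RBS1] replicate 1 or 3. Both rpc128-1007 replicate 2 and [RBS1] replicate 2 had low short genes, and with both left out 6 genes were called, TRM8 not among them. Without rpc128-1007 replicate 3 there were also 6. The replicate numbers paired these strains too, and with the block 17 were called, 11 higher and 6 lower. The matching count over all tested genes is not given here. The added genes were LHP1, PUS4, SEN15 and URM1, at 0.20, 0.21, 0.33 and 0.33, and NCS6, SMM1 and TRM1, at -0.17, -0.22 and -0.21. With counts scaled by library totals 16 were higher and 3 lower. Over all tested genes 1125 were then higher and 715 lower, against 737 and 1000 as reported.

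In [PRT1], 4 of the 55 mRNAs were higher than in wt and none was lower, where 7.06% of all tested genes were called higher and 4.91% lower. At an unadjusted p under 0.05 edgeR gave 1 lower, and DESeq2 and limma-voom called 0. Of the 4, 3 lie on chromosome VIII. TRM5, which methylates the guanine beside the anticodon that keeps the reading frame, had 99.8, 88.0 and 81.8 CPM in [PRT1], against 44.2, 36.9 and 41.3 CPM in wt (log2 fold change 1.14 ± 0.17, edgeR adjusted p = 0.000273). IKI1 had 130, 121 and 122 CPM in [PRT1], against 69.0, 66.8 and 70.2 CPM in wt (0.86 ± 0.09, edgeR adjusted p = 8.65e-06). UBA4, the enzyme that activates Urm1 for thiolation of the wobble uridine, had 185, 165 and 164 CPM in [PRT1], against 93.9, 96.3 and 99.9 CPM in wt (0.82 ± 0.09, edgeR adjusted p = 1.73e-05).

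These 3 differences were of the size of the whole chromosome, whose median was 0.96 in this comparison, with 237 of its 292 tested genes called higher and 0 called lower. With the chromosome medians removed TRM5, IKI1 and UBA4 were at 0.18, -0.10 and -0.13, and none was called. Their partners on other chromosomes were not called. The other 5 Elongator subunits were between -0.01 and 0.15, and URM1, NCS2 and NCS6 were at -0.04, 0.25 and 0.20. The call outside chromosome VIII was TRL1, with 82.9, 81.1 and 70.3 CPM in [PRT1], against 63.1, 56.9 and 58.2 CPM in wt (0.40 ± 0.09, edgeR adjusted p = 0.012). Its call was lost without [PRT1] replicate 1 or replicate 2. With the replicate number as a block, which paired these strains, 9 genes were called, all higher. Over all tested genes 627 were then higher and 602 lower, against 413 and 287 as reported. The added genes were GCD10, NCS2, NCS6, SMM1 and THG1, at 0.25, 0.26, 0.20, 0.29 and 0.25.

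Against rpc128-1007, [PRT1] had 5 higher and 3 lower mRNAs among the 55, where 8.1% of all tested genes were called higher and 13.7% lower. IKI1 had 57.5, 73.5 and 69.0 CPM, UBA4 had 84.8, 106 and 104 CPM and TRM5 had 43.0, 69.8 and 58.6 CPM in rpc128-1007, all below the [PRT1] values given above. IKI1, UBA4 and TRM5 were at 0.90, 0.80 and 0.65, and at 0.18, 0.08 and -0.06 with the chromosome medians removed. LOS1 had 155, 144 and 141 CPM in [PRT1], against 299, 218 and 221 CPM in rpc128-1007. TRM2 had 172, 138 and 122 CPM in [PRT1], against 255, 201 and 187 CPM in rpc128-1007. LOS1 and TRM2 were at -0.75 and -0.57, and at -0.16 and 0.02 with them removed, and none of these 5 was then called. Outside the 3 chromosomes, ELP6 and TRM10 were higher at 0.33 and 0.24. ELP6 had 52.7, 43.9 and 41.0 CPM in [PRT1], against 33.9, 40.4 and 35.3 CPM in rpc128-1007. TRM10 had 151, 147 and 148 CPM in [PRT1], against 126, 126 and 124 CPM in rpc128-1007 (edgeR adjusted p = 0.0171). PUS1 was lower, with 269, 242 and 229 CPM in [PRT1], against 352, 313 and 285 CPM in rpc128-1007, at -0.36 ± 0.10 (edgeR adjusted p = 0.014). The calls on ELP6, TRM10 and PUS1 were lost when only the libraries of both strains were fitted. ELP6 also lost its call with the chromosome medians removed and without [PRT1] replicate 1 or rpc128-1007 replicate 1 or 3, TRM10 without [PRT1] replicate 1 or rpc128-1007 replicate 3, and PUS1 without [PRT1] replicate 2 or 3 or rpc128-1007 replicate 1.

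Between the suppressed strains, [PRT1] was higher than [RBS1] in TRM5, UBA4 and IKI1 and lower in none of the 55, where 8.55% of all tested genes were called higher and 7.78% lower. At an unadjusted p under 0.05 edgeR gave 3 lower, and DESeq2 and limma-voom called 1 each. All 3 higher genes lie on chromosome VIII. TRM5 had 99.8, 88.0 and 81.8 CPM in [PRT1], against 39.2, 54.1 and 37.2 CPM in [RBS1]. UBA4 had 185, 165 and 164 CPM in [PRT1], against 86.4, 96.3 and 81.2 CPM in [RBS1]. Neither gene's libraries overlapped. With counts scaled by library totals 3 were higher and 2 lower. Over all tested genes 423 were then higher and 660 lower, against 500 and 455 as reported. With the chromosome medians removed TRM5 and UBA4 were at 0.11 and 0.02, and IKI1, at 0.68 as tested, was at -0.26 (edgeR adjusted p = 0.0463). IKI1 was thus above [RBS1] in level, with 130, 121 and 122 CPM in [PRT1] against 76.1, 83.0 and 74.0 CPM in [RBS1], and below it relative to its chromosome. The 3 tested genes outside the list whose log2 CPM followed IKI1 most closely over the 15 libraries were LNP1, ENO2 and EPT1, with Pearson's r of 0.98, 0.97 and 0.97. All 3 lie on chromosome VIII, and the points share strain and chromosome.

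**Figure D4:**
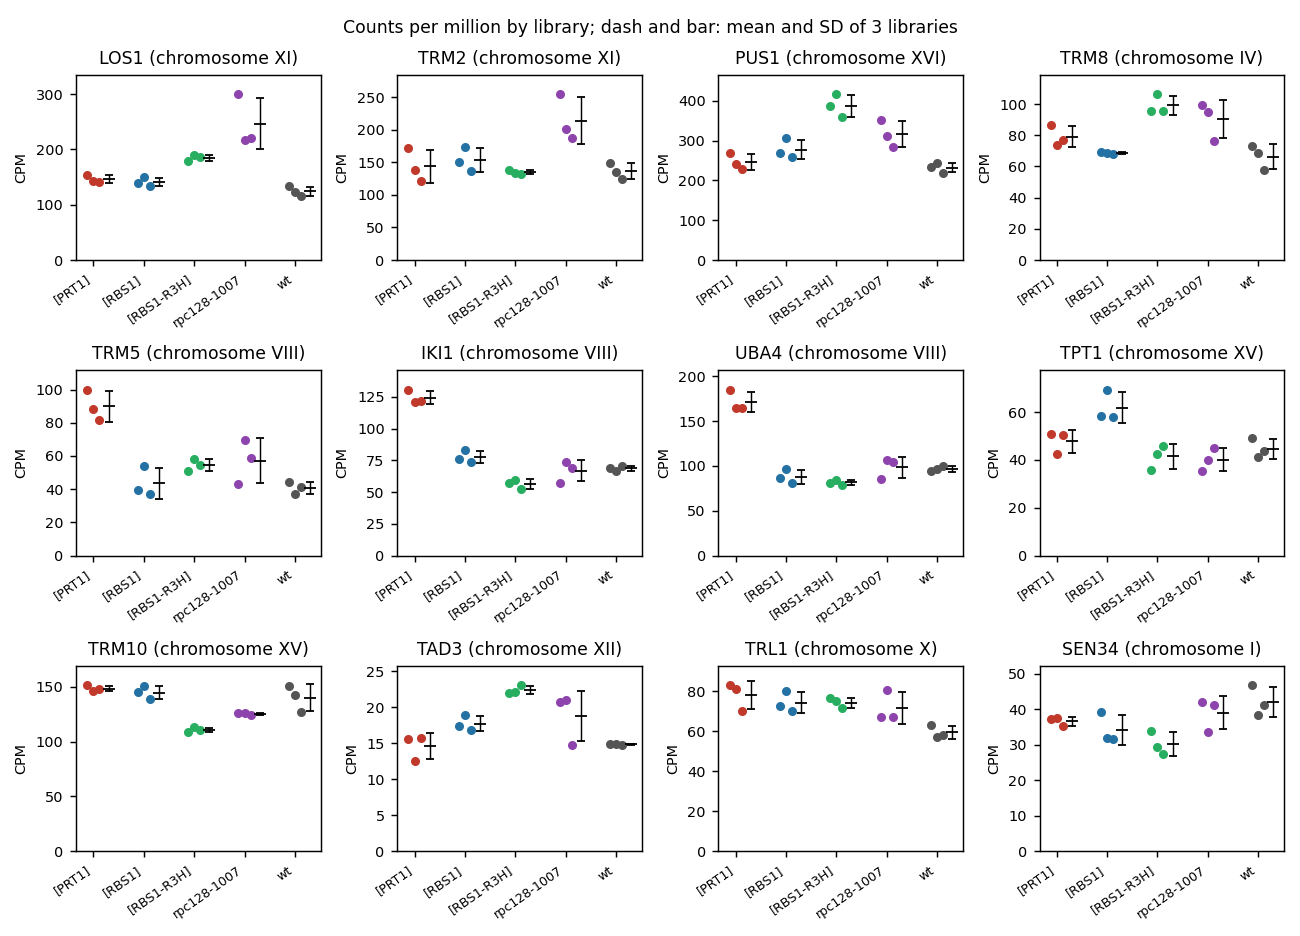
CPM in each library (points) with the mean and SD of 3 libraries (dash and bar) for 12 of the genes, strains from [PRT1] at the left to wt at the right. TRM5, IKI1 and UBA4 are high in the 3 [PRT1] libraries, and TRM2 in rpc128-1007. LOS1, PUS1 and TRM8 are above wt in both rpc128-1007 and [RBS1-R3H], and TAD3 was called above wt in [RBS1-R3H] only.

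Within complexes the subunits differed in their values. Elongator opens the synthesis of the side chain on the wobble uridine, and TRM9 (YML014W) adds a methyl ester to it. In [RBS1-R3H] vs wt, IKI1 was called at -0.29, while IKI3 (YLR384C), ELP2 (YGR200C), ELP3 (YPL086C), the catalytic subunit, ELP4 and ELP6 were at 0.20, 0.16, 0.03, 0.04 and -0.26, and TRM9 was at 0.09. Of the splicing endonuclease, SEN34 was called at -0.48, while SEN2 (YLR105C), SEN54 (YPL083C) and SEN15 (YMR059W) were at -0.21, 0.00 and -0.03. In the thiolation pathway URM1 and UBA4 were at -0.37 and -0.25, and NCS2 (YNL119W) and NCS6 (YGL211W), which transfer the sulfur, at 0.26 and 0.11, with none called. In wybutosine synthesis, which rebuilds the guanine beside the anticodon of phenylalanine tRNA after Trm5 has acted, TYW1 (YPL207W), TRM12 (YML005W), TYW3 (YGL050W) and PPM2 were at 0.36, 0.28, -0.13 and 0.19, again with none called.

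Other genes gave differences that did not pass the test in any comparison without the replicate block. With the block, in strains that the numbers paired, SMM1 and TRM11 were called in rpc128-1007 vs wt, SMM1 and GCD10 in [PRT1] vs wt, SMM1 and LHP1 in [RBS1] vs rpc128-1007, and LHP1 and TRM112 in [RBS1] vs [RBS1-R3H]. Among the methyltransferases these were TRM3, NCL1 (YBL024W), GCD10 (YNL062C), GCD14 (YJL125C), TRM7 (YBR061C), TRM732 (YMR259C), TRM82, TRM11 (YOL124C), TRM112, TRM13 (YOL125W) and TRM44 (YPL030W). In [RBS1-R3H] vs wt they ran between -0.21 for TRM112 and 0.30 for TRM44. GCD10 and GCD14, which together make methyladenosine in the T loop, had 149 ± 3.54 and 148 ± 6.02 CPM (SD, n = 3) in [RBS1-R3H], against 125 ± 13.6 and 144 ± 16.7 CPM in wt. These CPM are not scaled to coding length, so the genes are not compared with each other. The dihydrouridine synthases DUS1 (YML080W), SMM1 (YNR015W), DUS3 (YLR401C) and DUS4 (YLR405W), which reduce uridines mostly in the D loop, were at 0.11, 0.24, 0.10 and -0.12. TAD2, PUS7 (YOR243C), MOD5 (YOR274W), an isopentenyl transferase, and SUA5 (YGL169W), which starts the threonylcarbamoyl modification, were at -0.13, 0.10, -0.11 and 0.03. LHP1 (YDL051W), the yeast La protein that binds new Pol III transcripts at their trailing ends, was at -0.10, with 172 ± 11.9 CPM in [RBS1-R3H], against 184 ± 20.3 CPM in wt.

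Further genes of tRNA maturation were set beside the 55. Of 37 such genes, 6 were higher and 0 lower in rpc128-1007 vs wt, with a median of 0.18. Of the 6, 4 (TRZ1, KAE1, TCD2 and KTI12) lie on chromosome XI, and outside chromosomes I, VIII and XI 2 of 28 were called, PUS6 and MTO1. In [RBS1-R3H] vs wt 7 were higher and 0 lower, with POP1, a protein of RNase P, at 0.81. The cytosolic aminoacyl-tRNA synthetases, which charge finished tRNA, gave other counts. Of 21 of them, 9 were higher and 0 lower in rpc128-1007 vs wt, with a median of 0.22, and 14 were higher and 0 lower in [RBS1-R3H] vs wt, with a median of 0.41. The lysine enzyme gene KRS1 was at 0.66 and 1.28 in these comparisons, which share the wt libraries. Outside chromosomes I, VIII and XI, 7 of 19 were higher in rpc128-1007 vs wt. Of 20 nucleolar ribosome assembly factors, 2 and 1 were higher, and 0 were lower, and outside these chromosomes 0 of 18 were higher in rpc128-1007 vs wt. Over the 55 the medians in the same comparisons were 0.05 and 0.05. In [RBS1] vs wt the median was 0.14 over the 55, 0.12 over the 37, 0.09 over the synthetases and 0.21 over the assembly factors. In [PRT1] vs wt these medians were 0.12, 0.05, -0.04 and 0.14. Of all tested genes, 12.7% were called higher and 5.62% lower in rpc128-1007 vs wt, and 13.4% and 9.55% in [RBS1-R3H] vs wt. Outside chromosomes I, VIII and XI, 414 of 5157 tested genes were higher in rpc128-1007 vs wt. Among the 55, 2 of the 49 outside these chromosomes were.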

How the data were processed

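The authors deposited 1 table of raw read counts per gene for the 15 libraries, made from paired-end Illumina reads of oligo(dT)-selected RNA. The authors aligned the reads with TopHat2 2.0.11 to assembly EF4 and counted them in R with GenomicAlignments; strand and counting mode are not given in the sources used here. Of 6600 gene IDs, 5917 matched R64 of RefSeq, and the others held 0.215% of counts. No EF4 sequence was used here, so its identity with R64 was not checked, and gene names, chromosomes, coding lengths and promoter windows are those of R64.

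Genes with at least 10 counts at the median depth (1.06 CPM) in 3 libraries and 15 in all were kept (5851 genes). Counts were fitted over all 15 libraries with edgeR 4.0.16 (R 4.3.3) with TMM factors and quasi-likelihood tests, and p-values were adjusted by Benjamini-Hochberg over all tested genes at 0.05. CPM were computed from the same factors. Alternatives used DESeq2 1.42.0, limma-voom (limma 3.58.1), other scalings, no filter, a replicate block, the strains compared alone, each library left out, both libraries with low short genes left out, and a length trend removed. Chromosome medians removed was added after seeing the data. Fits were tested on simulated data. Figures and tables used Python 3.11.15, pandas 2.3.3 and matplotlib.

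Same-numbered libraries were taken as paired where all 3 correlations of their deviations from the strain means were over 0.1. These were 0.16 to 0.25 for rpc128-1007 and wt, 0.55 to 0.73 for [RBS1] and rpc128-1007, 0.26 to 0.36 for [PRT1] and wt, and 0.16 to 0.31 for [RBS1] and [RBS1-R3H]. The pairing rests on these values, since no source names a shared day or batch. The block was fitted over all 15 libraries at once, including strains that the numbers did not pair. The highest value, 0.73, is that of rpc128-1007 replicate 2 and [RBS1] replicate 2, the libraries with low short genes. Whether the length trend gave these correlations was not tested.

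The 55 genes and the lists beside them were chosen with earlier results of these data known. Library values are given for genes called in rpc128-1007 vs wt without overlap, and elsewhere for up to 5 called genes in each direction with the largest changes and no overlap. Those of TRL1 in [RBS1-R3H] vs wt and TRM10 in [RBS1] vs [RBS1-R3H] were added after their values were seen. All other genes have a value, or are covered by a stated range, in at least 1 comparison. Counting precision follows from the lowest count of 116 for any of the 55.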

Additional observations from a re-analysis of the deposited data

How the results depend on the processing

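Of 60 calls on the 55 genes over 9 comparisons, 21 stood in their direction in all 25 alternatives and 39 were lost or turned in at least 1, 13 of them only with the chromosome medians removed. That setting gave 2 genes called in [PRT1] vs rpc128-1007, 0 in [RBS1-R3H] vs rpc128-1007, 2 in [PRT1] vs wt and 1 in [PRT1] vs [RBS1], against 8, 2, 4 and 3 as reported. The 1 is IKI1, then called lower, so none of the 3 reported higher calls stood. With this setting 7 calls had the opposite sign: TRM5 and TRM2 at -0.058 and 0.017 in [PRT1] vs rpc128-1007, TRM2 at 0.10 in [RBS1] vs rpc128-1007, LOS1 at 0.15 in [RBS1-R3H] vs rpc128-1007, UBA4 and IKI1 at -0.13 and -0.10 in [PRT1] vs wt, and IKI1 at -0.26 in [PRT1] vs [RBS1]. Among all genes called it put the share of higher calls at 71.1% in [RBS1-R3H] vs rpc128-1007, 42.1% in [PRT1] vs wt and 41.7% in [PRT1] vs [RBS1], against 40.7%, 59.0% and 52.4% as reported.

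The replicate block lost no reported call and gave 11 genes in rpc128-1007 vs wt, 17 in [RBS1] vs rpc128-1007 and 9 in [PRT1] vs wt, the paired comparisons whose counts moved by over 1.5 times, and 20 in [RBS1] vs [RBS1-R3H], against 15 as reported. Where the samples shared only a number, the block gave 10 in [PRT1] vs rpc128-1007, 5 in [RBS1-R3H] vs rpc128-1007, 9 in [RBS1] vs wt, 16 in [RBS1-R3H] vs wt and 7 in [PRT1] vs [RBS1]. In these 4 and in [PRT1] vs rpc128-1007, the lowest correlation of same-numbered libraries was between -0.23 and 0.10, and every library was closest to its own number only in [RBS1-R3H] vs rpc128-1007. Library totals gave 7 genes in rpc128-1007 vs wt, 19 in [RBS1] vs rpc128-1007, 14 in [RBS1-R3H] vs wt and 5 in [PRT1] vs [RBS1], and put the share of higher calls among all genes called at 49.7%, 61.1%, 33.7% and 39.1%, against 69.4%, 42.4%, 58.3% and 52.4% as reported. In [RBS1] vs [RBS1-R3H] that share was 71.8% under library totals and 48.3% as reported. Fitting only the strains compared gave 5 genes in [PRT1] vs rpc128-1007, 4 in [RBS1] vs rpc128-1007, 1 in [RBS1-R3H] vs rpc128-1007, 1 in [RBS1] vs wt and 14 in [RBS1-R3H] vs wt. Without both libraries with low short genes there were 6 in [RBS1] vs rpc128-1007, 0 in [RBS1] vs wt, 15 in [RBS1-R3H] vs wt and 6 in [PRT1] vs [RBS1]. With the length trend removed there were 14 in [RBS1-R3H] vs wt and 5 in [PRT1] vs [RBS1], and the share of higher calls among all genes called was 56.4% in rpc128-1007 vs wt, 53.9% in [RBS1-R3H] vs rpc128-1007 and 49.2% in [RBS1] vs wt, against 69.4%, 40.7% and 60.3% as reported.

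Leaving out 1 library at a time gave 4 to 8 genes in rpc128-1007 vs wt, 6 to 10 in [PRT1] vs rpc128-1007, 6 to 12 in [RBS1] vs rpc128-1007, 1 to 4 in [RBS1-R3H] vs rpc128-1007, 3 to 5 in [PRT1] vs wt, 0 to 5 in [RBS1] vs wt, 7 to 12 in [RBS1-R3H] vs wt, 3 to 4 in [PRT1] vs [RBS1] and 10 to 16 in [RBS1] vs [RBS1-R3H]. Over all genes, 1074 were called in rpc128-1007 vs wt as reported, 1616 with the block and 636 with only these strains. In [RBS1-R3H] vs rpc128-1007 671 were called, against 1041 with the block, 221 with only these strains and 329 with the chromosome medians removed. In [PRT1] vs wt there were 700, against 1229 with the block and 361 with the chromosome medians removed, and in [RBS1] vs wt 633, against 1166 with the block and 375 with only these strains. In [PRT1] vs rpc128-1007 there were 1278, against 777 with the chromosome medians removed, and in [RBS1] vs rpc128-1007 1737, against 1012 with only these strains. The cause of these moves was not tested.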
